A study of Homo sapiens with 16 samples.

Results

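Palbociclib (PB) given alone was compared with its vehicle, dimethyl sulfoxide (DMSO), in SK-N-BE(2)C, an established human neuroblastoma cell line of the adrenergic type that carries amplified MYCN. The members are the 4 libraries of cells given 1 µM PB and the 4 libraries of cells given DMSO, 8 of the 16 libraries of the series, and treatment lasted 5 days. The other 8 libraries came from the same line given 10 µM all-trans retinoic acid (RA), or PB and RA together, again 4 of each. They entered the fit to share 1 estimate of the spread, and RA served to show where PB differs from the retinoid. The replicates are passages of 1 line plated as separate experiments, so the spread between them is that of repeated cultures and not of patients or lines. The gene lists of the cell cycle, the spliceosome and synaptic vesicles are left aside here, and families other than these 3 programmes are described. Members that a family shares with these programmes were kept in its counts and median, so its calls can include cell-cycle genes. Of the genes given with values as members of another family, CCND1, TYMS, UHRF1, FOXM1, LBR, TMPO and TUBB4B are also in the cell-cycle lists and RAB3A in the synaptic vesicle list.

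PB blocks CDK4 and CDK6, the cyclin D kinases that phosphorylate the retinoblastoma protein. While that protein stays unphosphorylated it holds the E2F factors, which switch on genes for DNA synthesis, and cells stop in G1. Neuroblastoma cells descend from sympathoadrenal precursors of the neural crest, which normally leave the cycle and become noradrenaline-secreting neurons or chromaffin cells with axons, ion channels and dense-core granules.

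Of 27037 genes in the count table, 15415 had enough reads to be tested. A gene is said to have risen or fallen where the edgeR quasi-likelihood test gave a Benjamini-Hochberg adjusted p below 0.05 and the absolute log2 fold change of PB over DMSO was above 0.5, with the replicate number as a block. By this rule 2878 genes (18.7%) rose and 1865 (12.1%) fell. Rises made up 60.7% of the calls, and 50.5% (2257 rises and 2214 falls) after correction for GC content and exon length. The uncorrected shares are the background for every count of a gene family against DMSO in the main fit. Counts under another setting have that setting's totals as background, such as the 2257 rises and 2214 falls among 14682 genes after the correction. Over all tested genes the median change was 0.03 on the log2 scale. The groups did not overlap in any sample for 3980 of the 4743 called genes. Calling itself selects for such separation, so this count adds no support to the calls. Levels are CPM, counts scaled to a common library total, which compare samples for 1 gene and not genes with each other, and are given as the mean ± SD of 4 replicates. Changes are log2 fold changes ± SE from the fit.

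The libraries held 20672313 to 23309237 counts in PB and 24533071 to 31620821 in DMSO, so 3 counts, the most that a count of 0 allows, equal 0.0949 to 0.145 CPM. The first principal component of these 8 libraries (62.9% of the variance) parted PB from DMSO, and the second (17.5%) parted replicates 1 and 2 from replicates 3 and 4 in both groups. Replicates 1 and 2 alone gave 2789 rises and 1983 falls, and replicates 3 and 4 alone gave 2197 and 1976. Adrenergic neuroblast markers summed to 7035 to 7549 CPM in DMSO and 10125 to 10954 in PB, and chromaffin cell markers to 2107 to 2891 and 6068 to 7762, with 4 of 6 risen. Mesenchymal markers summed to 1128 to 1388 CPM in DMSO and 956 to 1113 in PB, and of the 10 tested 5 fell, VIM with the highest level among them, and CD44 rose. Schwann cell and glial markers summed to 19.6 to 47.5 CPM and 30.7 to 55.3, with SOX10 below 0.5 CPM in every library. Markers of endothelium and white blood cells summed to at most 5.57 CPM in any library and those of epithelium to at most 23.4.

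Ranked over genes outside the 3 programmes that averaged 10 CPM or more and whose groups did not overlap, the 12 largest rises included many genes of neurons. ASIC4, a member of the acid-sensing ion channel family, was at 9.93, 7.17, 8.41 and 8.90 CPM in DMSO replicates 1 to 4 and at 85.4, 88.7, 89.3 and 76.8 CPM in PB replicates 1 to 4 (log2 fold change 3.30 ± 0.12, adjusted p = 1.78e-11). Every PB library lay far above every DMSO library. TAGLN3, an actin-binding protein of neurons, was at 13.5, 14.9, 10.4 and 8.83 CPM in DMSO and 115, 130.3, 69.5 and 77.6 in PB (log2 fold change 3.02 ± 0.07, adjusted p = 2.03e-17). Its PB values fell into a higher pair, replicates 1 and 2, and a lower pair, replicates 3 and 4, all above DMSO. DCX encodes doublecortin, which binds microtubules in migrating young neurons. It was at 18.1, 14.5, 17.4 and 16.4 CPM in DMSO and 123, 88.04, 126 and 116 CPM in PB, an increase of 6.79-fold with no overlap (log2 fold change 2.76 ± 0.08, adjusted p = 9.28e-16). The others of the 12 largest rises were the calcium pump ATP2B2 (3.13 ± 0.15), the adaptor SHC2 (3.03 ± 0.10), the Golgi transport GTPase RAB6B (3.03 ± 0.11), the stathmin STMN4 (2.77 ± 0.09), the cyclic nucleotide-gated channel subunit CNGB1 (2.64 ± 0.18), the sulfotransferase SULT4A1 (2.62 ± 0.08), the autophagy protein TP53INP1 (2.61 ± 0.10) and the long non-coding RNAs GACAT3 (3.19 ± 0.12) and MIR7-3HG (2.99 ± 0.19). RAB6B shares exon sequence with SRPRB on the opposite strand, and the strand setting of the counts was not stated, so its level is uncertain.

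The 12 largest falls by the same rule follow. POGLUT3, an O-glucosyltransferase of the endoplasmic reticulum, was at 63.2, 68.9, 47.7 and 53.4 CPM in DMSO and 11.3, 13.2, 8.41 and 9.14 CPM in PB (log2 fold change -2.47 ± 0.09, adjusted p = 6.64e-15), with no overlap. EMP2, a membrane protein of the epithelial membrane protein family, went from 70.4 ± 2.46 to 20.4 ± 1.62 CPM (-1.79 ± 0.09), and the actin-associated calponin CNN2 from 95.2 ± 13.2 to 29.2 ± 2.94 CPM (-1.70 ± 0.09). The others were the Hippo pathway transcription factor TEAD2 (-1.89 ± 0.12), the neuronal pentraxin NPTX2 (-1.86 ± 0.13), TP53I13 (-1.76 ± 0.09), the acetoacetyl-CoA thiolase ACAT2 (-1.75 ± 0.13), the clamp-binding protein PCLAF (-1.72 ± 0.14), the ligand WNT3 (-1.71 ± 0.09), the membrane-curving protein TRIP10 (-1.71 ± 0.12), the vinexin gene SORBS3 (-1.66 ± 0.08) and the Arp2/3 inhibitor ARPIN (-1.64 ± 0.10). ACAT2 overlaps TCP1 on the opposite strand.

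**Figure D1:**
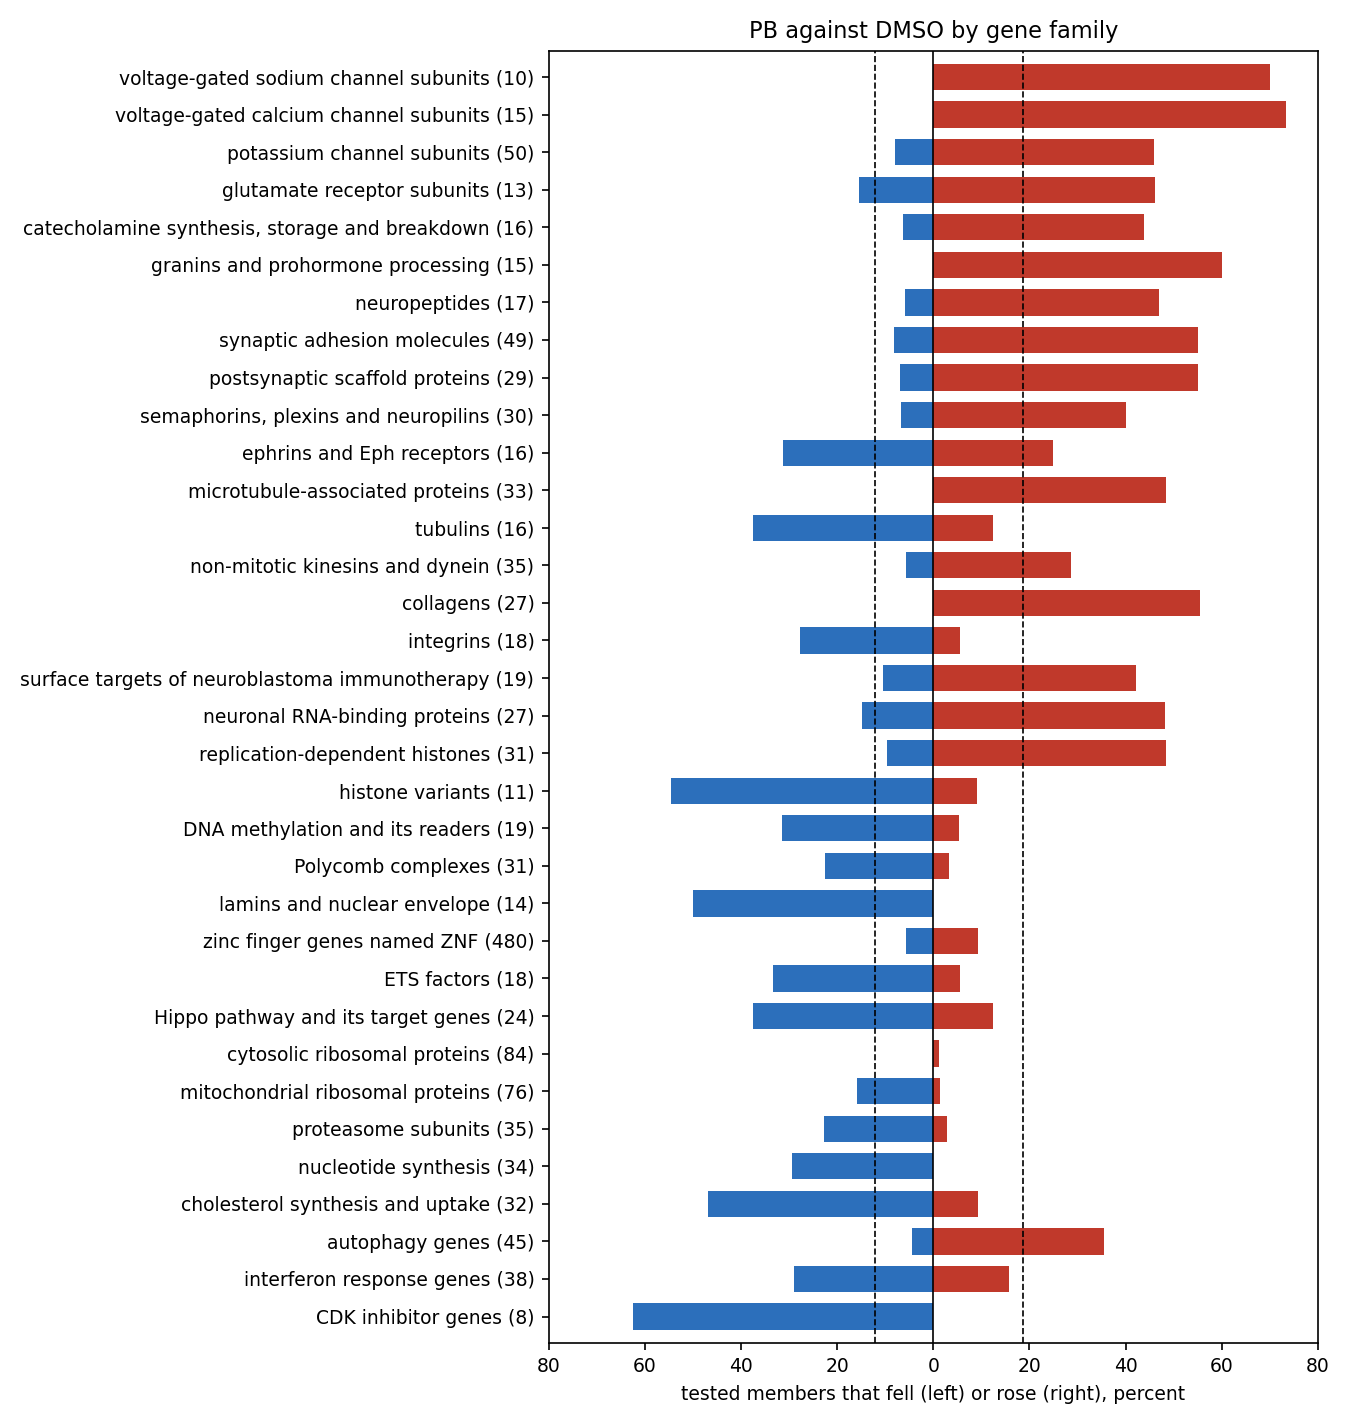
Share of the tested members of 34 gene families that rose (bars to the right, red) or fell (bars to the left, blue) in PB against DMSO, in percent, with the number of tested members after each name. Dashed lines mark the 18.7% and 12.1% of all tested genes. Sodium and calcium channels, microtubule-associated proteins and collagens had rises only, and the nuclear envelope, nucleotide synthesis and CDK inhibitor families had falls only.

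Genes for electrical excitability rose across several channel families. Voltage-gated sodium channels carry the upstroke of the action potential, calcium channels couple it to secretion, and potassium channels end it. Of the sodium channel subunits, 7 of 10 rose and 0 fell (median 1.24). Of the calcium channel subunits, 11 of 15 rose and 0 fell (median 0.91). Of the potassium channel subunits, 23 of 50 rose and 4 fell (median 0.54), with 7 falls after the GC and length correction. Each of the 3 families exceeded the background share of 18.7%, and each had more risen members in replicates 1 and 2 alone than fallen ones, as it had in replicates 3 and 4 alone.

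SCN3B, a sodium channel beta subunit, was at 111, 88.98, 100.1 and 103 CPM in DMSO and 241, 192, 237 and 226 CPM in PB (log2 fold change 1.15 ± 0.05, adjusted p = 4.38e-13). The pore-forming subunits SCN3A and SCN8A went from 9.29 ± 2.74 to 26.2 ± 7.24 CPM and from 25.4 ± 2.39 to 42.7 ± 5.57 CPM. Both were separated between the groups. CACNA1B, the pore of the N-type calcium channel that triggers transmitter release, was at 14.8, 13.1, 13.6 and 12.8 CPM in DMSO and 59.7, 46.1, 47.8 and 41.2 CPM in PB (log2 fold change 1.83 ± 0.08, adjusted p = 8.51e-14). CACNA1H, the pore of a low-voltage T-type channel, went from 28.6 ± 8.72 to 94.4 ± 28.5 CPM (1.73 ± 0.06), and the accessory subunits CACNB1 and CACNA2D2 rose by 1.01 ± 0.09 and 0.91 ± 0.11. Among potassium channels, KCND1, an A-type channel subunit, rose by 1.99 ± 0.14, the inward rectifier KCNJ12 by 1.57 ± 0.10 and the sodium-activated channel KCNT1 by 1.28 ± 0.09. The family also held falls, among them KCNK3, an acid-sensitive leak channel, which went from 99.8 ± 12.8 to 56.6 ± 4.34 CPM (log2 fold change -0.81 ± 0.08, adjusted p = 8.66e-08).

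**Figure D2:**
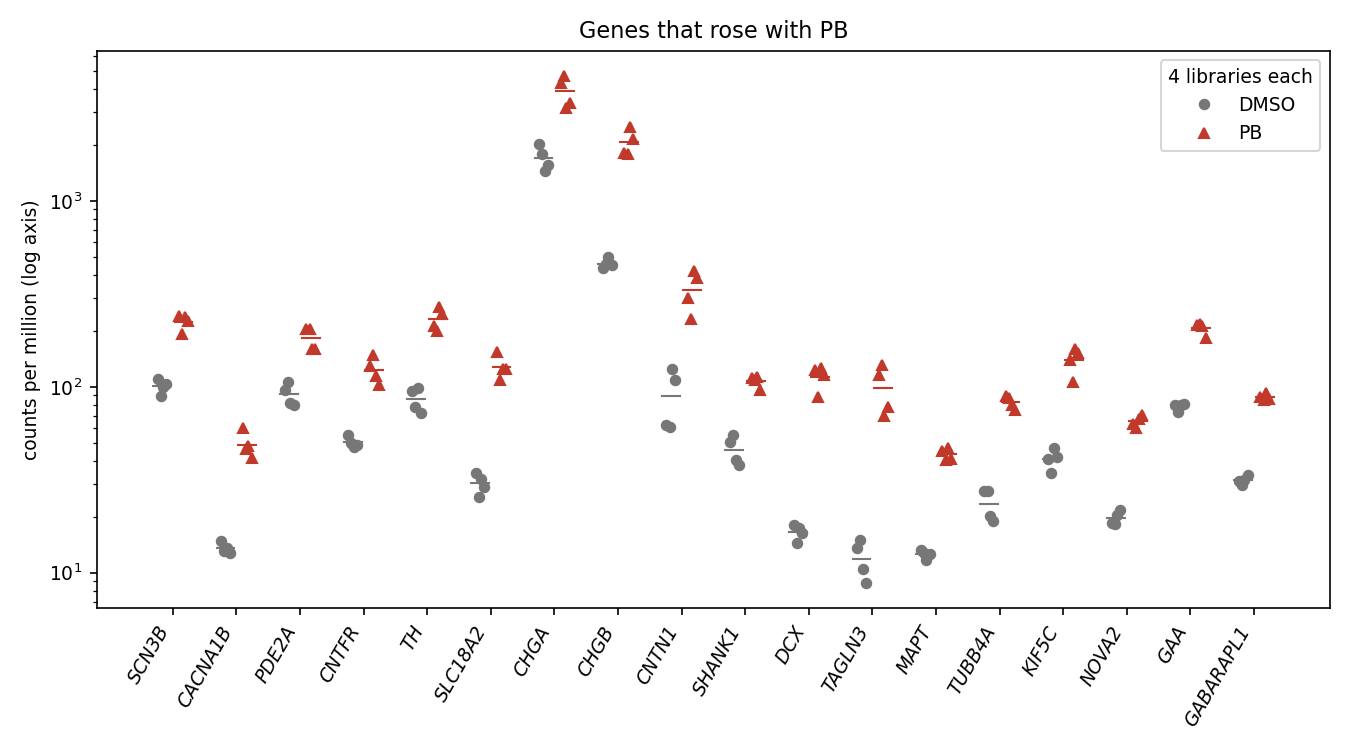
CPM (log axis) of 18 genes of excitability, signalling, secretion, neuronal structure and degradation in each of the 4 DMSO libraries (grey circles) and the 4 PB libraries (red triangles), with a short bar at each group's mean. In each of these genes the lowest PB library lies above the highest DMSO library.

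Ion pumps and ligand-gated receptors were more mixed. ATP2B2 and ATP2B3, plasma membrane calcium pumps of excitable cells, went from 2.52 ± 0.911 to 22.6 ± 4.61 CPM and from 4.07 ± 1.25 to 12.6 ± 2.64 CPM. ASIC1, a relative of ASIC4, went from 71.9 ± 2.73 to 149 ± 11.5 CPM (1.05 ± 0.09). TRPA1, an irritant-sensing cation channel, went the other way, from 169 ± 26.3 to 75.1 ± 4.49 CPM (log2 fold change -1.16 ± 0.13, adjusted p = 6.11e-06). Glutamate receptor subunits counted 6 rises and 2 falls among 13 tested (median 0.53), with the AMPA subunit GRIA1 at 1.91 ± 0.840 CPM in DMSO and 8.64 ± 2.89 in PB and the obligatory NMDA subunit GRIN1 at 3.53 ± 0.898 CPM in DMSO and 14.01 ± 4.26 in PB. Nicotinic subunits counted 4 rises and 1 fall among 8 tested (median 0.51). There CHRNA7 rose (1.20 ± 0.07) and CHRNA5 fell (-0.84 ± 0.07), the latter overlapping CHRNA3 on the opposite strand. Connexin GJC1, a gap junction protein, fell from 84.5 ± 10.8 to 33.4 ± 8.76 CPM (-1.36 ± 0.11).

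The machinery of noradrenaline and of the dense-core granule rose in part. Tyrosine hydroxylase makes the precursor of all catecholamines, vesicular monoamine transporters load them into granules, and granins form the granule core. Among genes for catecholamine synthesis, storage and breakdown, 7 of 16 rose and 1 fell (median 0.29). TH was at 94.6, 77.4, 99.1 and 72.4 CPM in DMSO and 212, 198, 269.5 and 245 CPM in PB (log2 fold change 1.45 ± 0.15, adjusted p = 6.69e-06). The vesicular transporter SLC18A2 was at 34.3, 25.6, 32.04 and 28.9 CPM in DMSO and 153, 108, 124 and 125 CPM in PB (log2 fold change 2.07 ± 0.06, adjusted p = 8.18e-16), although it overlaps PDZD8 on the opposite strand, and the chromaffin-type transporter SLC18A1 went from 4.28 ± 1.17 to 20.1 ± 4.87 CPM. Groups were separated in all 3. PNMT, the enzyme that turns noradrenaline into adrenaline, went from 2.68 ± 0.894 to 11.2 ± 2.25 CPM (log2 fold change 2.07 ± 0.29, adjusted p = 5.86e-05). DBH, which makes noradrenaline, and the noradrenaline transporter SLC6A2 rose less, by 0.75 ± 0.08 and 0.77 ± 0.05.

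Of the granins and prohormone-processing genes, 9 of 15 rose and 0 fell (median 0.55). CHGB, which encodes chromogranin B, was at 435, 456, 496 and 453 CPM in DMSO and 1818, 1786, 2499.7 and 2142 CPM in PB, a 4.46-fold increase (log2 fold change 2.16 ± 0.08, adjusted p = 1.83e-11). CHGA, chromogranin A, was at 2029, 1784, 1449 and 1564 CPM in DMSO and 4299, 4689, 3157 and 3354 CPM in PB (log2 fold change 1.17 ± 0.17, adjusted p = 1.37e-04). Both sets of PB libraries lay above DMSO. PCSK1N, an inhibitor of a prohormone convertase, and PTPRN2, a granule membrane protein, rose by 1.27 ± 0.07 and 1.24 ± 0.08. Neuropeptide genes did not follow 1 direction in full: 8 of 17 rose and 1 fell (median 0.70). GAL (galanin) went from 524 ± 57.3 to 1021 ± 159.6 CPM (0.96 ± 0.10), while VIP (vasoactive intestinal peptide) went from 529 ± 83.7 to 282 ± 50.8 CPM (-0.91 ± 0.10). NPY passed the test (log2 fold change 1.33 ± 0.16, adjusted p = 1.01e-05) although its libraries ranged widely, with 6.28, 7.62, 48.9 and 34.7 CPM in DMSO and 8.79, 16.5, 134 and 113 CPM in PB. Its groups overlapped, and within each replicate number PB exceeded DMSO. Without the replicate block its adjusted p was 0.27, and the list had 4 rises in place of 8.

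Second messenger and transport genes of the same cells were also counted. Adenylyl cyclases make cyclic AMP and phosphodiesterases break it down, and of the 2 families together 11 of 25 rose and 2 fell (median 0.15), with 7 rises in replicates 3 and 4 alone. PDE2A, a phosphodiesterase stimulated by cyclic GMP, was at 96.5, 106, 82.03 and 79.5 CPM in DMSO and 205, 204, 159.6 and 159.6 CPM in PB (log2 fold change 1.00 ± 0.06, adjusted p = 8.80e-12), and the cyclase ADCY5 rose by 1.15 ± 0.10. Genes of acetylcholine counted 3 rises and 0 falls among 6 tested (median 0.44), the risen ones including the esterases ACHE (0.71 ± 0.13) and BCHE (0.66 ± 0.06). Among RAB GTPases, the switches of membrane traffic, 10 of 52 rose and 7 fell (median 0.12). RAB3A, which acts at secretory vesicles, went from 21.5 ± 2.94 to 75.2 ± 4.56 CPM (1.82 ± 0.09). Solute carriers, the most numerous transporter family, counted 42 rises and 22 falls among 209 tested (median 0.10), close to the background of 18.7% and 12.1%. The glutamate uptake transporter SLC1A3 (-1.58 ± 0.12) and the organic anion transporter SLCO4A1 (-1.47 ± 0.07) were among the falls.

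The promoters of CHGA and SLC18A2 are shown because both genes rose and both hold the cyclic AMP response element, the palindrome TGACGTCA, in the RefSeq window from 250 bases before to 50 bases after the start site (build GRCh38.p14). This word occurs in 1.85% of 35116 human promoter windows of that length, either strand. Those windows belong to 27305 gene symbols, tested or not, so some genes have several. List members were counted with 1 window each, so their shares and the share over all windows are not on 1 basis. The same holds for the words of the other promoters shown. Among members with a window, 2 of the 12 in the granin list hold the word, CHGA and VGF. In the catecholamine list 1 of the 9 holds the word, SLC18A2. In CHGA (chr14:92922900-92923199, plus strand) the word starts 54 bases before the start site and in SLC18A2 (chr10:117240864-117241163, plus strand) 48 bases before it. Capitals mark the word, which is a match of letters and not a measured binding site.
CHGA: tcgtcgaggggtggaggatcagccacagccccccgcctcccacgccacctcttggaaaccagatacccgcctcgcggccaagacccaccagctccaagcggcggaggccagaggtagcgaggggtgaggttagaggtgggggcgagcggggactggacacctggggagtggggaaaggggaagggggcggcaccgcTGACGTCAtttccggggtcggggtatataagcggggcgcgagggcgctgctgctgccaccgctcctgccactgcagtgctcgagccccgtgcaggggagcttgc
SLC18A2: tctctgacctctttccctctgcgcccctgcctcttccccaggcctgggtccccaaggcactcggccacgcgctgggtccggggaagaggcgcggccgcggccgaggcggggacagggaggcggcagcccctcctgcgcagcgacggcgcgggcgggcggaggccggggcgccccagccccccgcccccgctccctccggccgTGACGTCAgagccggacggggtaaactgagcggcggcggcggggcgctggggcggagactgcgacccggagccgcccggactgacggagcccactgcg

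In both lists of genes that join neurons at synapses, members rose more often than the background of 18.7%. Synaptic adhesion molecules reach across the cleft, and scaffold proteins anchor receptors on the receiving side. Of the adhesion molecules, 27 of 49 rose and 4 fell (median 0.60). Of the postsynaptic scaffold proteins, 16 of 29 rose and 2 fell (median 0.66). After the GC and length correction 21 adhesion molecules and 13 scaffold proteins rose. The rises were 22 and 16 without the block, and 26 and 14 in replicates 3 and 4 alone. CNTN1, an immunoglobulin-type adhesion molecule of axons, was at 62.7, 60.98, 125 and 109 CPM in DMSO and 300.4, 230.4, 417 and 383 CPM in PB (log2 fold change 1.92 ± 0.09, adjusted p = 4.56e-11). CADM2, a cell adhesion molecule, went from 7.88 ± 0.833 to 34.1 ± 6.40 CPM, LRFN2 from 3.67 ± 0.218 to 17.1 ± 1.05 CPM and LRRTM2, a leucine-rich organizer of excitatory synapses, from 5.28 ± 0.540 to 25.99 ± 5.47 CPM. LRRTM2 overlaps CTNNA1 on the opposite strand. CNTNAP2, a contactin-associated protein, fell from 174 ± 33.9 to 87.2 ± 22.7 CPM (log2 fold change -1.01 ± 0.06, adjusted p = 3.93e-12). Among scaffolds, SHANK1 was at 50.3, 54.9, 40.2 and 37.8 CPM in DMSO and 111, 109, 113 and 95.6 CPM in PB (log2 fold change 1.24 ± 0.07, adjusted p = 5.49e-12), and SHANK2, IQSEC3 and the kinase CAMK2B rose by 1.25 ± 0.08, 1.51 ± 0.09 and 2.80 ± 0.11. CAMK2B overlaps YKT6 on the opposite strand.

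Axon guidance genes were divided. Semaphorins and their plexin and neuropilin receptors counted 12 rises and 2 falls among 30 tested (median 0.26), led by SEMA6D (1.18 ± 0.15), SEMA7A (1.17 ± 0.09) and the receptor PLXNA3, which went from 85.2 ± 6.93 to 179 ± 10.4 CPM. In replicates 3 and 4 alone 5 genes of that list fell. Ephrins and Eph receptors counted 4 rises and 5 falls among 16 tested (median 0.08), with falls of EPHB4 (-1.42 ± 0.14), EFNA2 (-1.07 ± 0.10) and EPHA2 (-0.95 ± 0.12) and a rise of EPHA6 (0.76 ± 0.10). Cadherins and non-clustered protocadherins counted 9 rises and 8 falls among 30 tested (median 0.10), but 4 rises and 9 falls in replicates 3 and 4 alone, 5 falls in replicates 1 and 2 alone and 4 falls without the block. CDH11, a mesenchymal-type cadherin, went from 35.6 ± 8.81 to 20.2 ± 5.19 CPM (log2 fold change -0.81 ± 0.17, adjusted p = 0.0013).

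The microtubule cytoskeleton changed in composition. Tubulins are the subunits of microtubules, and microtubule-associated proteins bundle and stabilise them in axons and dendrites. Of the microtubule-associated proteins, 16 of 33 rose and 0 fell (median 0.49). Of the tubulins, 2 of 16 rose and 6 fell (median -0.01). MAPT, which encodes tau, was at 13.3, 12.7, 11.7 and 12.6 CPM in DMSO and 45.1, 40.6, 46.7 and 40.8 CPM in PB (log2 fold change 1.79 ± 0.07, adjusted p = 1.32e-14), and MAP7 and the tau kinase TTBK1 rose by 2.00 ± 0.10 and 1.52 ± 0.08. MAP2, the dendritic member, did not pass the fold minimum (0.39 ± 0.06). Among tubulins, TUBB4A, the beta-4A isotype of neurons and oligodendrocytes, was at 27.4, 27.4, 20.2 and 18.9 CPM in DMSO and 88.8, 87.6, 79.6 and 74.8 CPM in PB (log2 fold change 1.83 ± 0.06, adjusted p = 4.22e-15). TUBA1B, a broadly expressed alpha-tubulin, was at 2113, 2051, 2134 and 2094 CPM in DMSO and 830.4, 836, 969.7 and 1051 CPM in PB (log2 fold change -1.19 ± 0.09, adjusted p = 2.17e-08). TUBB4A thus lay above and TUBA1B below its DMSO range in all 4 PB libraries. TUBB4B went from 658 ± 24.4 to 342 ± 9.19 CPM and TUBB from 41.05 ± 1.56 to 22.2 ± 2.46 CPM. TUBB3, the isotype most used as a neuronal marker, did not pass the fold minimum (0.39 ± 0.04). Tubulin genes, like histone genes, resemble each other closely, so reads may have been split among them and single values are uncertain.

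Motor proteins of transport counted 10 rises and 2 falls among 35 tested (median 0.14). KIF5C, a conventional kinesin heavy chain of neurons, was at 41.03, 34.4, 46.7 and 42.1 CPM in DMSO and 140.0, 107, 159.5 and 152 CPM in PB (log2 fold change 1.76 ± 0.05, adjusted p = 7.15e-16). DYNC1I1, the neuronal intermediate chain of dynein, went from 23.2 ± 1.22 to 50.8 ± 3.82 CPM. In the list of stathmins, neurofilaments and growth cone proteins, 10 of 27 rose and 3 fell (median 0.19). GAP43, a growth cone protein, went from 179.8 ± 25.8 to 362 ± 30.97 CPM, and the intermediate filament genes NEFM, PRPH and INA rose by 0.79 ± 0.06, 0.76 ± 0.05 and 0.62 ± 0.05, while NEFL was not called (log2 fold change 0.10 ± 0.10, adjusted p = 0.39). STMN1, the stathmin of dividing cells, fell from 441 ± 21.5 to 288 ± 28.8 CPM, and VIM, the vimentin gene of precursor and mesenchymal cells, from 862 ± 111 to 576 ± 73.4 CPM.

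**Figure D3:**
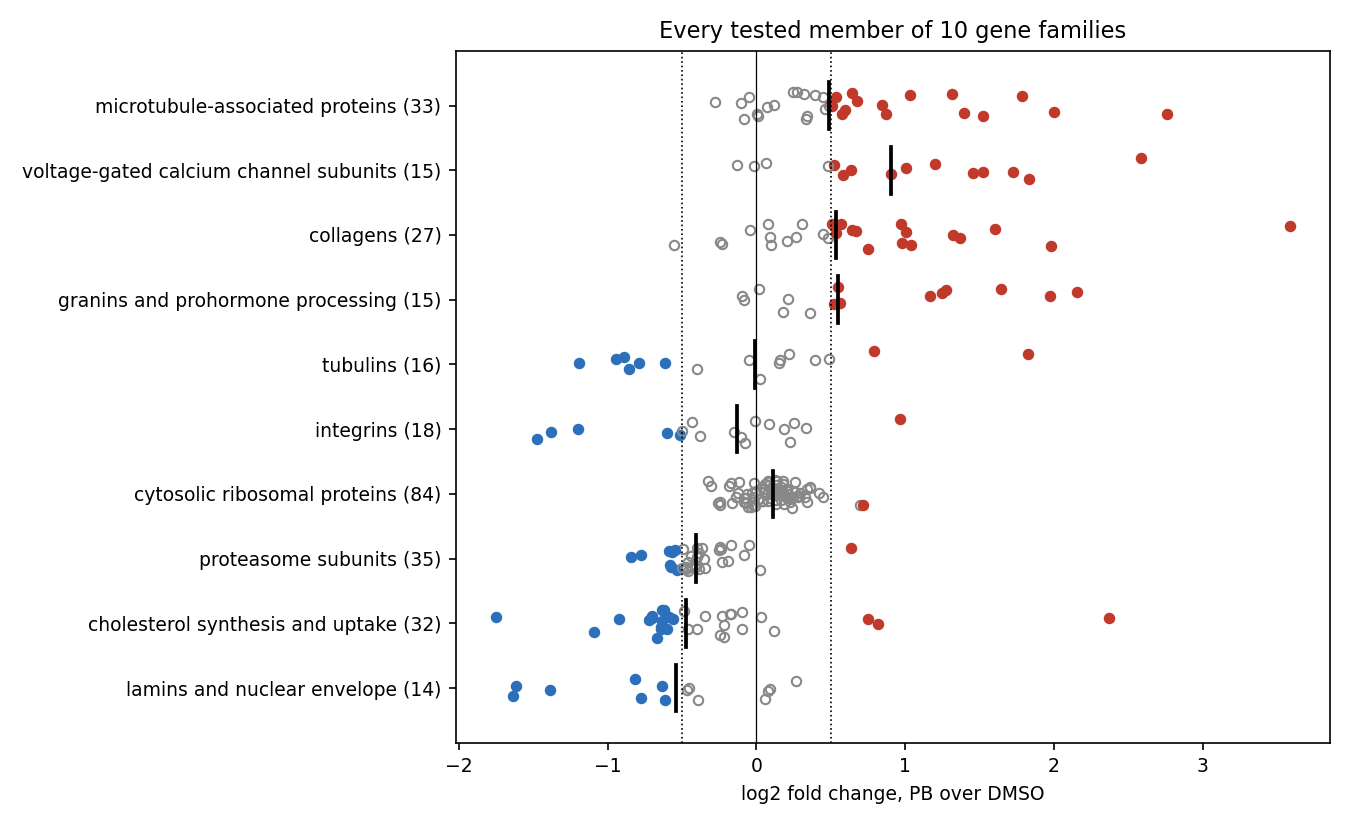
Log2 fold change of PB over DMSO for every tested member of 10 gene families, 1 point per gene, filled where the gene was called and open where it was not, with a vertical bar at the family's median and dotted lines at -0.5 and 0.5. Microtubule-associated proteins and collagens lie mostly to the right of 0 without a called fall, tubulins and integrins spread to both sides, and the nuclear envelope and proteasome families lie mostly to the left.

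Collagens rose more often than the background, and integrins fell more often. Of the collagens, 15 of 27 rose and 0 fell (median 0.54), and of the laminins, 3 of 9 rose and 0 fell (median 0.26). In replicates 3 and 4 alone 11 collagens rose and 2 fell. Of the integrins, the heterodimers that hold cells to this matrix, 1 of 18 rose and 5 fell (median -0.13), with 8 falls after the GC and length correction. LAMA4, a laminin alpha chain of basement membranes, was at 3.55, 3.63, 4.84 and 4.72 CPM in DMSO and 23.9, 23.7, 24.05 and 25.7 CPM in PB (log2 fold change 2.6 ± 0.26, adjusted p = 3.63e-06). COL13A1, a transmembrane collagen, and COL22A1 went from 5.43 ± 2.03 to 21.4 ± 4.77 CPM and from 15.8 ± 5.09 to 39.9 ± 8.61 CPM, and COL6A1 from 104 ± 10.1 to 205 ± 25.5 CPM (0.98 ± 0.12). ITGB5, an integrin beta subunit that binds vitronectin, was at 183, 197, 193 and 199 CPM in DMSO and 58.5, 73.5, 69.8 and 77.5 CPM in PB (log2 fold change -1.47 ± 0.06, adjusted p = 2.52e-14). It lay below its DMSO range in every PB library, and ITGA3, an alpha subunit for laminin, lay above (0.97 ± 0.07). The syndecans SDC1 and SDC4, heparan sulfate proteoglycans of the surface, fell from 43.9 ± 6.99 to 16.1 ± 3.81 CPM and from 42.6 ± 3.48 to 17.9 ± 1.74 CPM. The metalloprotease MMP14 fell (-1.20 ± 0.11) and MMP2, a protease that MMP14 activates, rose from 790.3 ± 115 to 1642 ± 149.9 CPM.

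Surface proteins used as targets of neuroblastoma immunotherapy counted 8 rises and 2 falls among 19 tested (median 0.41). B4GALNT1, the synthase that makes the ganglioside GD2, was at 138, 115, 128 and 139 CPM in DMSO and 59.5, 45.5, 78.8 and 75.2 CPM in PB (log2 fold change -1.03 ± 0.11, adjusted p = 2.03e-06). No library of PB reached the DMSO range. The adhesion molecules NCAM1 and L1CAM went from 389 ± 19.4 to 677 ± 36.2 CPM and from 1129 ± 78.7 to 1699 ± 61.3 CPM, and the somatostatin receptor SSTR2 from 21.9 ± 6.46 to 38.8 ± 7.44 CPM. DLK1 passed the test (log2 fold change 1.40 ± 0.16, adjusted p = 1.48e-05) with groups that overlapped, at 425, 507, 158 and 221 CPM in DMSO and 1127, 1276, 446 and 561 CPM in PB. It was higher in PB than in DMSO within every replicate number, and its adjusted p without the replicate block was 0.063. In the same ganglioside pathway, ST3GAL5, which makes the precursor GM3, rose by 0.80 ± 0.08 and ST8SIA3 by 0.80 ± 0.05, so that the list counted 4 rises and 3 falls among 13 tested (median 0.06).

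Several lists of chromatin regulators held more falls than rises. Progenitors and neurons build the BAF remodelling complex from different subunits. Of the 5 progenitor subunits, 0 of 5 rose and 3 fell (median -0.77), namely PHF10 (-1.19 ± 0.07), BCL7C (-1.15 ± 0.08) and ACTL6A (-0.77 ± 0.06). Of the 5 neuronal subunits, 2 of 5 rose and 1 fell (median 0.38). DPF3 (1.13 ± 0.14) and BCL7A (0.54 ± 0.05) rose (BCL7A fell below the fold minimum, at 0.48 to 0.50, when DMSO replicate 2, or replicate 3 or 4 of PB, was left out), ACTL6B, the neuronal replacement of ACTL6A, was not called (0.38 ± 0.09), and DPF1, another neuronal subunit, fell from 65.7 ± 7.89 to 36.2 ± 3.17 CPM. PHF10 overlaps C6orf120 on the opposite strand.

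DNA methylation and Polycomb repression are copied onto new strands as cells divide. Of the methylation genes, 1 of 19 rose and 6 fell (median -0.25), and of the Polycomb genes, 1 of 31 rose and 7 fell (median -0.11). EZH2, the methyltransferase of Polycomb complex PRC2, was at 119, 121, 123 and 121 CPM in DMSO and 39.3, 38.7, 52.04 and 51.8 CPM in PB (log2 fold change -1.42 ± 0.08, adjusted p = 2.46e-11). UHRF1, which guides DNMT1 to hemimethylated DNA, was at 134, 129, 120.3 and 122 CPM in DMSO and 49.6, 45.2, 56.6 and 56.4 CPM in PB, and DNMT1, the maintenance methyltransferase, went from 484 ± 19.4 to 276 ± 11.2 CPM (-0.81 ± 0.05). All 3 were lower in each PB library than in any DMSO library. GADD45G was the 1 member of its list to rise (1.35 ± 0.13), and PCGF5 the 1 in the Polycomb list (0.84 ± 0.16).

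The promoters of EZH2, UHRF1 and DNMT1 are shown because the 3 genes fell together and each holds 1 of the E2F-type words TTTCCCGC, TTTCGCGC, TTTGCCGC or TTTGGCGC, read on either strand, near its start. These words occur in 3.31% of the 35116 promoter windows. In the methylation list 2 of 17 members with a window hold one, and in the Polycomb list 5 of 28, of which EZH1, SUZ12, MTF2 and AEBP2 were not called. In EZH2 (chr7:148884242-148884541, minus strand) the word starts at the 2nd transcribed base, in UHRF1 (chr19:4909251-4909550, plus strand) 14 bases before the start site, and in DNMT1 (chr19:10194904-10195203, minus strand) 2 bases before it.
EZH2: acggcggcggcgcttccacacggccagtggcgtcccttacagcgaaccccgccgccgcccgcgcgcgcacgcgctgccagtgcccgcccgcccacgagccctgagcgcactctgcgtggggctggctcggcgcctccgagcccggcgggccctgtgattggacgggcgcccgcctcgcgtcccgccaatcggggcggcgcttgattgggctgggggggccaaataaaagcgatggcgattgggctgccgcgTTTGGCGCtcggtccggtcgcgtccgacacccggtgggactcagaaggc
UHRF1: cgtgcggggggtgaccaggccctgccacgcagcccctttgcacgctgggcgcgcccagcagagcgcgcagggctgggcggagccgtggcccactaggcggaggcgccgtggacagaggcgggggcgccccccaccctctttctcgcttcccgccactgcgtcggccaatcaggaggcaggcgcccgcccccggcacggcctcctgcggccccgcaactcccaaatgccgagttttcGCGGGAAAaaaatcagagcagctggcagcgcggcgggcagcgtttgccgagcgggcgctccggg
DNMT1: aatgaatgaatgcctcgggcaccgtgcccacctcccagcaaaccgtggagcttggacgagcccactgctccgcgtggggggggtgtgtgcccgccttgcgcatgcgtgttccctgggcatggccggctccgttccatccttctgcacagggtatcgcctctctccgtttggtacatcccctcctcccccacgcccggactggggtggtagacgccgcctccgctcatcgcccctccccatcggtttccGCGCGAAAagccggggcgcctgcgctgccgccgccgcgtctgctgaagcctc

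The nuclear envelope was among the families with the lowest medians. Lamins form the mesh beneath the envelope and anchor silent chromatin to it. Of its genes, 0 of 14 rose and 7 fell (median -0.54). LMNB1, lamin B1, was at 245, 224, 239 and 248 CPM in DMSO and 68.9, 65.4, 86.6 and 89.6 CPM in PB (log2 fold change -1.63 ± 0.12, adjusted p = 1.50e-07). LBR, the lamin B receptor, was at 194, 216, 199 and 211 CPM in DMSO and 64.3, 61.2, 64.3 and 77.7 CPM in PB (log2 fold change -1.62 ± 0.09, adjusted p = 4.54e-10). TMPO went from 406 ± 13.04 to 156 ± 23.7 CPM, LMNB2 from 389.7 ± 10.9 to 221 ± 17.2 CPM and LMNA, the lamin A and C gene, from 490.0 ± 31.2 to 321 ± 38.1 CPM. LMNA thus fell less (-0.61 ± 0.05) than LMNB1. Nuclear pore and transport genes counted 1 rise and 10 falls among 61 tested (median -0.22), with NUP210 (-1.19 ± 0.05) the largest fall.

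**Figure D4:**
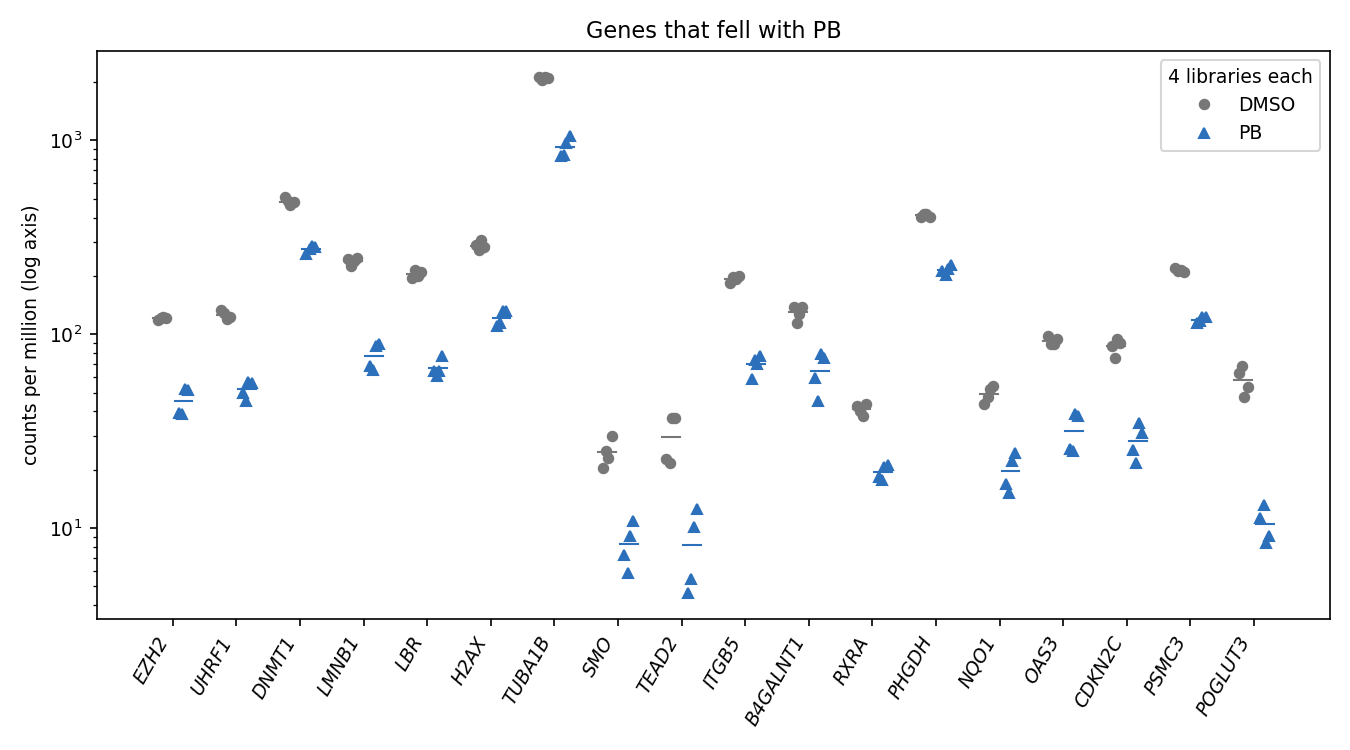
CPM (log axis) of 18 genes of chromatin, nuclear envelope, receptor, metabolic, surface and cell adhesion functions in each of the 4 DMSO libraries (grey circles) and the 4 PB libraries (blue triangles), with a short bar at each group's mean. In each of these genes the highest PB library lies below the lowest DMSO library.

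Histone genes were counted by kind. Replication-dependent histone messages end in a stem-loop in place of a poly(A) tail, so only their polyadenylated forms are captured here. Of these, 15 of 31 rose and 3 fell (median 0.58), with H2BC4 going from 5.80 ± 0.698 to 24.3 ± 6.85 CPM and H2AC6 from 6.96 ± 0.900 to 27.9 ± 1.90 CPM. The falls were 6 after the GC and length correction and 0 with a stricter filter on low counts. Histone variants, which are made also outside S phase, counted 1 rise and 6 falls among 11 tested (median -0.50). The rise is H2BC21, which is in both lists. H2AX, the variant phosphorylated at DNA breaks, was at 288, 271, 305 and 282 CPM in DMSO and 109.7, 114, 131 and 132 CPM in PB (log2 fold change -1.24 ± 0.05, adjusted p = 2.52e-14), and H2AZ1 went from 837 ± 24.4 to 449 ± 24.5 CPM. Among lysine demethylases KDM5B rose from 61.5 ± 1.33 to 151 ± 7.17 CPM (1.30 ± 0.05) and KDM6B from 74.4 ± 3.01 to 130.1 ± 5.19 CPM, while the methyltransferase NSD2 fell from 259 ± 6.06 to 146 ± 9.64 CPM.

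RNA-binding proteins of neurons, which set neuron-type exon choice and message stability, counted 13 rises and 4 falls among 27 tested (median 0.38). NOVA2 was at 18.5, 18.2, 20.5 and 21.7 CPM in DMSO and 63.4, 59.7, 66.8 and 70.6 CPM in PB (log2 fold change 1.73 ± 0.07, adjusted p = 5.46e-14). SRRM4, which promotes neuronal microexons, its relative SRRM3 and CELF4 went from 8.33 ± 0.436 to 21.5 ± 1.97 CPM, from 51.5 ± 5.10 to 116 ± 10.4 CPM and from 10.9 ± 0.345 to 27.6 ± 1.86 CPM. All 4 were separated between the groups. PTBP1, a repressor of neuronal exons, fell from 799 ± 41.1 to 532 ± 15.5 CPM (-0.58 ± 0.04). In the list of LIN28, HMGA and oncofetal RNA-binding proteins, 0 of 7 rose and 2 fell (median -0.44). HMGA1, an architectural chromatin protein, went from 588 ± 39.9 to 306 ± 17.05 CPM, and LIN28B missed the fold minimum (-0.44 ± 0.06).

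Families of transcription factors did not move as blocks. Zinc finger genes named ZNF, the most numerous family, counted 45 rises and 27 falls among 480 tested (median 0.07), below the background shares of 18.7% and 12.1%. In replicates 3 and 4 alone 26 of them rose and 34 fell. Forkhead factors counted 2 rises and 6 falls among 18 tested (median -0.06). FOXF1, a mesodermal factor, was at 16.03, 10.2, 14.4 and 15.4 CPM in DMSO and 2.66, 2.90, 2.85 and 2.72 CPM in PB (log2 fold change -2.33 ± 0.13, adjusted p = 5.53e-12), and FOXM1, a driver of mitotic genes, fell from 354 ± 13.1 to 127 ± 14.9 CPM. ETS factors counted 1 rise and 6 falls among 18 tested (median -0.12), with ETV4 down (-1.08 ± 0.09) and FEV, a factor of serotonin neurons, up from 120.3 ± 7.03 to 240.3 ± 16.3 CPM. HOX genes counted 0 rises and 2 falls among 15 tested (median 0.15) and TALE homeobox factors 0 rises and 3 falls among 13 tested (median -0.03), the latter including IRX5, which went from 12.4 ± 0.655 to 3.24 ± 0.459 CPM. Nuclear receptors counted 5 rises and 4 falls among 27 tested (median -0.05), with 2 rises in replicates 3 and 4 alone. RXRA, the partner receptor that the retinoic acid receptors need, was at 42.8, 40.1, 38.04 and 43.5 CPM in DMSO and 18.3, 17.7, 20.6 and 21.3 CPM in PB (log2 fold change -1.08 ± 0.07, adjusted p = 5.80e-11), below its DMSO range throughout. AP-1 and immediate early factors counted 4 rises and 4 falls among 25 tested (median -0.11), with NR4A1 (-0.93 ± 0.07) and ATF3 (-0.88 ± 0.08) down and EGR3 (1.23 ± 0.22) up. Circadian clock genes counted 6 rises and 4 falls among 21 tested (median 0.16), with falls of the repressor genes PER2 (-0.57 ± 0.09) and CRY1 (-0.54 ± 0.06). SOX11, a factor of immature neurons, fell by 0.58 ± 0.05 and SOX18 rose by 0.76 ± 0.06. MYCN, the amplified oncogene of this line, was at 2618, 3304, 3113 and 2752 CPM in DMSO and 5352, 6337, 5159 and 5081 CPM in PB (log2 fold change 0.89 ± 0.07, adjusted p = 1.42e-08), with no overlap.

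Growth factor systems also divided within families. Among neurotrophin, GDNF-family, ALK and related receptors and ligands, 10 of 35 rose and 4 fell (median 0.00), with 7 falls after the GC and length correction and as many in replicates 3 and 4 alone. NGFR, the low-affinity neurotrophin receptor, went from 100.4 ± 31.4 to 241 ± 70.3 CPM. CNTFR, the receptor for ciliary neurotrophic factor, was at 54.9, 49.9, 47.6 and 48.5 CPM in DMSO and 129, 147, 115 and 103 CPM in PB (log2 fold change 1.29 ± 0.06, adjusted p = 1.53e-12). ALK (0.32 ± 0.10) and RET (0.14 ± 0.04), receptor kinases mutated in some neural crest tumours, did not pass the fold minimum. Fibroblast growth factors and receptors counted 6 rises and 5 falls among 15 tested (median 0.02), with FGF1 up (1.48 ± 0.18) and the decoy-like receptor FGFRL1 down (-2.35 ± 0.11).

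Hedgehog, Hippo and WNT components included several of the deeper falls. SMO, the Hedgehog signal transducer, was at 20.5, 25.1, 22.9 and 29.8 CPM in DMSO and 7.29, 5.90, 9.08 and 10.8 CPM in PB (log2 fold change -1.58 ± 0.10, adjusted p = 5.21e-11), in a list of which 2 of 12 rose and 4 fell (median -0.27). In the Hippo list 3 of 24 rose and 9 fell (median -0.28). TEAD2, a DNA-binding partner of YAP1, was at 22.7, 21.6, 36.9 and 36.9 CPM in DMSO and 4.63, 5.47, 10.1 and 12.6 CPM in PB (log2 fold change -1.89 ± 0.12, adjusted p = 1.71e-10), and the kinase STK3 fell by 1.24 ± 0.10. The target gene ANKRD1 rose in that list, from 2.59 ± 1.18 to 10.7 ± 6.40 CPM, so its members did not move one way. In the WNT list 8 of 41 rose and 11 fell (median -0.04), against 3 rises and 11 falls in replicates 3 and 4 alone, 10 and 9 in replicates 1 and 2 alone, and 5 and 7 without the block. WNT3 went from 17.7 ± 1.95 to 5.41 ± 0.678 CPM and the receptor FZD2 from 23.2 ± 1.83 to 8.15 ± 1.67 CPM, and the ligand WNT6 rose from 28.99 ± 10.2 to 68.5 ± 15.5 CPM. In the insulin-like growth factor axis 7 of 19 rose and 3 fell (median 0.29). The adaptor IRS1 fell (-0.92 ± 0.09) and STC2, a secreted inhibitor of the protease PAPP-A, rose (1.03 ± 0.12). Genes of TGF-beta and BMP signalling counted 6 rises and 7 falls among 50 tested (median 0.03). These were 1 and 8 in replicates 3 and 4 alone, 6 and 4 in replicates 1 and 2 alone and 3 and 9 after the GC and length correction, and 3 genes rose without PB replicate 2. Genes fed back by ERK signalling counted 7 rises and 1 fall among 23 tested (median 0.10), among them CCND1, the cyclin partner of the inhibited kinases, which went from 1526 ± 263 to 2667 ± 395 CPM, and DUSP4, which went from 113 ± 32.02 to 235 ± 42.2 CPM. The ERK list had 5 rises and 5 falls in replicates 3 and 4 alone, and 4 falls without DMSO replicate 2 or with no filter on low counts.

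The genes of cytosolic protein synthesis stayed near their DMSO levels. Of the cytosolic ribosomal protein genes, 1 of 84 rose and 0 fell (median 0.11). Of the cytosolic tRNA synthetases, 1 of 21 rose and 0 fell (median -0.03), and of the ribosome biogenesis genes, 1 of 59 rose and 2 fell (median -0.08). These counts lie below the background in both directions. FBL, the nucleolar methyltransferase fibrillarin, was the largest fall there (log2 fold change -0.89 ± 0.05, adjusted p = 7.10e-12). Mitochondrial ribosomal proteins counted 1 rise and 12 falls among 76 tested (median -0.19), with MRPL11 going from 82.5 ± 3.42 to 39.7 ± 3.29 CPM. The respiratory chain moved little: complex I counted 3 rises and 1 fall among 38 tested (median -0.01), complexes II and III 0 rises and 0 falls among 14 tested (median -0.06), complex IV 2 rises and 0 falls among 12 tested (median 0.15) and complex V 1 rise and 0 falls among 18 tested (median 0.05).

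Proteasome subunits, the parts of the protease that removes ubiquitin-tagged proteins, counted 1 rise and 8 falls among 35 tested (median -0.41). PSMC3 was at 220.0, 212, 214 and 209 CPM in DMSO and 114, 117, 123 and 122 CPM in PB (log2 fold change -0.84 ± 0.04, adjusted p = 2.40e-12), and PSMD11 went from 121 ± 6.10 to 70.7 ± 2.47 CPM. The count of fallen subunits was 16 in replicates 1 and 2 alone, 13 after the GC and length correction, 9 in replicates 3 and 4 alone and 15 without PB replicate 4. Heat shock proteins and chaperonins moved both ways, with 7 rises and 9 falls among 78 tested (median -0.06). Targets of the unfolded protein response counted 1 rise and 3 falls among 25 tested (median -0.13).

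Cholesterol synthesis and uptake held one of the most one-sided metabolic changes. The pathway builds sterol from acetyl-CoA through mevalonate. Of the genes in this list, which also holds sterol exporters, 3 of 32 rose and 15 fell (median -0.47). MVK, mevalonate kinase, went from 50.5 ± 3.29 to 26.5 ± 1.79 CPM, SQLE, squalene epoxidase, from 261 ± 5.10 to 173 ± 13.1 CPM, and HMGCS1, the HMG-CoA synthase of the cytosol, from 197 ± 5.65 to 129 ± 9.69 CPM. SREBF2, the factor that drives the pathway, was not called (log2 fold change 0.03 ± 0.05, adjusted p = 0.56). Among the rises of the list were the sterol exporters ABCG1 and ABCA1, by 2.37 ± 0.18 and 0.75 ± 0.15. In fatty acid synthesis, the desaturase FADS1 fell from 199 ± 3.60 to 88.9 ± 13.8 CPM (-1.18 ± 0.10) and overlaps FADS2 on the opposite strand.

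VLDLR, a lipoprotein receptor that also serves the guidance protein reelin, went from 15.6 ± 1.13 to 50.7 ± 4.04 CPM (log2 fold change 1.70 ± 0.05, adjusted p = 9.28e-16). Cytochrome P450 enzymes counted 8 rises and 3 falls among 18 tested (median 0.47), with the sterol demethylase CYP51A1 among the falls (-0.63 ± 0.06).

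Other synthetic pathways also fell in part. Genes for nucleotide synthesis counted 0 rises and 10 falls among 34 tested (median -0.27), and TYMS, thymidylate synthase, went from 169 ± 4.63 to 55.2 ± 11.4 CPM. In serine, glycine and one-carbon metabolism 3 of 22 rose and 6 fell (median -0.13). PHGDH, which opens the serine pathway, was at 405, 416, 418 and 403 CPM in DMSO and 211, 203, 218 and 227 CPM in PB (log2 fold change -0.93 ± 0.04, adjusted p = 2.41e-13). ODC1, the entry enzyme of polyamine synthesis and a MYC target, went from 566 ± 17.6 to 384 ± 16.5 CPM (-0.56 ± 0.04). Glutathione and redox enzymes counted 3 rises and 7 falls among 41 tested (median -0.14), with 0 rises in replicates 3 and 4 alone. NQO1, a quinone reductase, was at 43.9, 47.2, 51.9 and 54.2 CPM in DMSO and 16.8, 15.1, 22.2 and 24.4 CPM in PB (log2 fold change -1.35 ± 0.13, adjusted p = 1.11e-06), the glutathione synthesis subunit GCLM went from 30.1 ± 1.28 to 14.8 ± 2.07 CPM and the cystine transporter SLC7A11 from 20.1 ± 4.54 to 10.6 ± 2.67 CPM. Glycolysis and hypoxia genes counted 5 rises and 5 falls among 39 tested (median -0.10), with 9 falls after the GC and length correction.

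Among lysosome and autophagy genes, the hydrolases and the autophagy genes rose more often than the background of 18.7%. The lysosomal membrane proteins did not, and the V-ATPase subunits lay near that share, with 4 rises in replicates 1 and 2 alone. Lysosomes degrade macromolecules with acid hydrolases, and autophagy delivers cell contents to them. Of the hydrolases, 12 of 44 rose and 3 fell (median 0.19), of the lysosomal membrane proteins, 4 of 33 rose and 0 fell (median 0.01), of the V-ATPase subunits, 3 of 19 rose and 1 fell (median 0.35), and of the autophagy genes, 16 of 45 rose and 2 fell (median 0.20). GAA, the acid alpha-glucosidase that breaks down glycogen, was at 80.03, 73.3, 80.04 and 80.5 CPM in DMSO and 214, 218, 211 and 184 CPM in PB (log2 fold change 1.40 ± 0.07, adjusted p = 3.50e-12). GABARAPL1, which coats the autophagosome membrane, was at 31.2, 29.6, 31.3 and 33.7 CPM in DMSO and 87.9, 84.9, 92.3 and 86.00 CPM in PB (log2 fold change 1.48 ± 0.04, adjusted p = 9.03e-16). Neither gene overlapped between groups. MAP1LC3B, another such protein, went from 123 ± 5.11 to 243 ± 12.3 CPM, the lysosomal calcium channel MCOLN1 from 44.4 ± 1.97 to 84.2 ± 5.10 CPM and the protease CTSF from 44.2 ± 3.22 to 99.2 ± 8.95 CPM. DNASE2, the acid nuclease, went the other way, from 22.9 ± 1.90 to 8.60 ± 0.713 CPM (log2 fold change -1.41 ± 0.08, adjusted p = 1.21e-11).

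The promoters of GAA and MCOLN1 are shown because both genes rose and each holds 2 copies of TCACGTGA, the core of the element bound by TFEB and related factors of lysosomal genes. The word occurs in 0.98% of the 35116 windows. Counted with 1 window per tested gene, it is in 4 of 29 hydrolase promoters and in 4 of 30 lysosomal membrane protein promoters. Of these 8 genes CTSA, GAA, MCOLN1 and MFSD1 rose, and GALNS, SCPEP1, LAMP1 and CLN3 were not called. In GAA (chr17:80101331-80101630, plus strand) the copies start 77 and 32 bases before the start site, and in MCOLN1 (chr19:7522374-7522673, plus strand) 42 and 15 bases before it.
GAA: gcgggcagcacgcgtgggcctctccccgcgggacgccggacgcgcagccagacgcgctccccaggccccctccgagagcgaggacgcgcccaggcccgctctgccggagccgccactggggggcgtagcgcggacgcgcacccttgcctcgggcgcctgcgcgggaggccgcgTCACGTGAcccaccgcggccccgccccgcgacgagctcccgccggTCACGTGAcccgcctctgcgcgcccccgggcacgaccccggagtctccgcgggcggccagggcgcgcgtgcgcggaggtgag
MCOLN1: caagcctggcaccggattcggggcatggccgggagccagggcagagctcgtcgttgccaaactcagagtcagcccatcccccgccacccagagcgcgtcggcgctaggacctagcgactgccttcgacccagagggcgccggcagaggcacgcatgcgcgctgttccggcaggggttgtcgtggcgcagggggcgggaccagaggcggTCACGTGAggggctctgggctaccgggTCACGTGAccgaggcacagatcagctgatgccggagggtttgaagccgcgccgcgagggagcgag

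Arrest by CDK inhibition is known to bring some cells to senescence, so genes of cell-cycle exit, death and inflammation were described. CDK inhibitor genes counted 0 rises and 5 falls among 8 tested (median -0.57). CDKN2C, the p18 inhibitor of CDK4 and CDK6, was at 86.7, 75.3, 94.8 and 90.6 CPM in DMSO and 25.4, 21.6, 34.7 and 31.1 CPM in PB (log2 fold change -1.64 ± 0.11, adjusted p = 1.32e-08). CDKN1A, the p21 gene, went from 36.9 ± 2.37 to 25.8 ± 4.48 CPM (-0.53 ± 0.08, and -0.49 without DMSO replicate 4) and CDKN1B, the p27 gene, from 172 ± 19.8 to 114 ± 18.9 CPM, while CDKN2A was not called (-0.23 ± 0.08). Among BCL2 relatives, 4 of 17 rose and 2 fell (median 0.19), and BBC3, the death-promoting PUMA gene, was at 4.29, 4.85, 3.83 and 3.60 CPM in DMSO and 15.1, 18.7, 18.5 and 16.7 CPM in PB (log2 fold change 2.06 ± 0.10, adjusted p = 9.91e-13). BOK rose by 1.07 ± 0.11, BMF fell by 0.93 ± 0.11, and MCL1 (-0.14 ± 0.04) and BCL2 (0.47 ± 0.06) did not pass the fold minimum.

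Secreted factors of senescent cells counted 4 rises and 6 falls among 24 tested (median 0.12), but 5 and 4 in replicates 1 and 2 alone. PLAUR (-1.08 ± 0.09) was among the falls and TNFRSF1B (1.10 ± 0.12) among the rises. Antigen presentation by MHC class I counted 1 rise and 1 fall among 15 tested (median 0.01), and B2M, its light chain, stood at 537 ± 69.7 CPM in DMSO and 538 ± 59.5 in PB (log2 fold change 0.01 ± 0.05, adjusted p = 0.91). Interferon response genes counted 6 rises and 11 falls among 38 tested (median -0.11), and 3 in place of 6 rose in replicates 3 and 4 alone, after the GC and length correction, with DESeq2 or its size factors, with no filter on low counts, and without DMSO replicate 1 or 2 or PB replicate 1 or 3. OAS3, an RNA sensor, was at 97.9, 88.8, 89.5 and 94.02 CPM in DMSO and 25.7, 25.01, 38.6 and 37.9 CPM in PB (log2 fold change -1.57 ± 0.14, adjusted p = 6.09e-07). It was below the DMSO range in every PB library. ABC transporters, which export lipids and drugs, counted 14 rises and 2 falls among 33 tested (median 0.43), with ABCA2 going from 126 ± 2.01 to 235 ± 16.6 CPM. Complement and coagulation regulators counted 8 rises and 5 falls among 22 tested (median 0.15), with 5 rises without the block, and 6 rises and 7 falls in replicates 3 and 4 alone. CLU, the secreted chaperone clusterin, was at 95.2, 84.5, 88.04 and 87.6 CPM in DMSO and 326, 307, 323 and 300.2 CPM in PB (log2 fold change 1.82 ± 0.05, adjusted p = 7.15e-16).

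Long non-coding RNAs were called more often in the upward direction than coding genes. Of 935 tested lncRNA genes 288 rose (30.8%) and 62 fell (6.63%), and of 12969 coding genes 2274 rose (17.5%) and 1674 fell (12.9%). GACAT3 was at 2.84, 3.42, 1.68 and 1.94 CPM in DMSO and 27.7, 24.1, 17.5 and 19.2 CPM in PB (log2 fold change 3.19 ± 0.12, adjusted p = 2.43e-14). MIR7-3HG, the host transcript of the miRNA miR-7, was at 1.95, 1.92, 2.85 and 2.98 CPM in DMSO and 21.8, 20.3, 18.6 and 17.2 CPM in PB. Both were separated between the groups. The reads cannot tell the host transcript from the miRNA, whose level was not measured.

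Compared directly with RA in the same fit, 2080 genes (13.5%) were higher in PB and 2310 (15%) lower. The families parted in direction. Of the potassium channel subunits 16 of 50 were higher in PB and 5 lower, and of the neuronal RNA-binding proteins 11 of 27 were higher in PB and 1 lower. Of the collagens 6 of 27 were higher in PB and 12 lower, and of the integrins 1 of 18 higher and 12 lower. Of the cholesterol genes 0 of 32 were higher in PB and 20 lower. These are differences between the agents and not changes from DMSO. Against DMSO, rises and falls numbered 15 and 0 for collagens, 1 and 5 for integrins and 3 and 15 for cholesterol genes. GJA5, a connexin, was -2.97 ± 0.07 on the log2 scale in PB relative to RA, although it rose against DMSO (1.06 ± 0.08). ASIC4 (2.51 ± 0.12), CHGB (1.60 ± 0.08) and CNTN1 (2.00 ± 0.09) were higher in PB than in RA. TH (0.25 ± 0.14), NGFR (-0.18 ± 0.07) and KDM5B (0.11 ± 0.05) were not called between the agents.

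The median GC content was 50.4% for risen genes, 48.3% for fallen genes and 47.5% for the rest, and the median exon length 5.24, 4.54 and 5.17 kb. With the offset for both, rises made up 50.5% of the calls in place of 60.7%.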

How the data were processed

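RNA was sequenced from SK-N-BE(2)C cells after 5 days in DMSO, PB, RA or PB with RA, in 4 replicates each. According to the study's methods, the authors trimmed the paired reads of poly(A)-selected directional libraries with Trim Galore and aligned them to hg19 with STAR, whose gene counts were deposited without normalization. The submitters' processing notes name Trim Galore 0.6.4 and STAR 2.6.1d, and the study's list of resources names another letter release of that STAR version. The authors also deposited the same counts as CPM, divided by each library's total. The annotation release and the strand column of the counts are not given in the sources used here. A deposited table of the authors' own DESeq2 1.32.0 comparisons, which holds fold changes and adjusted p-values, was not used. Every other column was used.

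Raw counts were fitted with edgeR 4.0.16 in R 4.3.3 (filterByExpr, TMM factors, robust quasi-likelihood test) over all 16 libraries with terms for group and replicate number. Calls needed an absolute log2 fold change above 0.5 and a p below 0.05 after Benjamini-Hochberg adjustment across the 15415 tested genes, so adjusted p-values without another tool named are edgeR's. The replicate number was kept as a block because deviations from the group mean of same-numbered libraries correlated at r of 0.330 to 0.573 over all 24 pairs. The replicates are passages of 1 line, so p-values measure the spread between cultures that remains after the replicate block. The procedure was tested on simulated data. Depth was 19515779 to 31620821 counts per library, and limits from it cover counting error only.

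The families and lists were chosen with earlier results of these data known, and pseudogenes matching a family pattern were dropped. For these lists only counts and medians are given, beside those of all genes. Named genes were the 12 largest rises and falls of called genes that averaged 10 CPM or more and had groups that do not overlap, up to 4 called members per list that averaged 5 CPM or more, and defining members of a list. ABCA1, ABCG1, CNTNAP2, KCNK3, MMP2 and the genes overlapping a named gene were named after their values were seen. Some genes that this rule picks are not reported here. Promoter sequences are those of RefSeq (GRCh38.p14), matched by symbol for 11316 of the tested genes (73.4%). GC content and exon length came from GENCODE (lifted to GRCh37) for 14682 genes. Alternatives were another normalization, DESeq2 1.42.0, limma-voom (limma 3.58.1), other filters and fold minimums, a GC and length offset, no block, fewer samples and each library left out.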

Additional observations from a re-analysis of the deposited data

Results flagged for a closer look

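In 15 of 434 groups of 4 libraries (3.46%), over the genes with values in the text, 1 library stood apart from the other 3 by a gap above Dixon's 95% critical value. Chance flags about 1 group in 20. DMSO replicate 2 was low for ATP2B3 (2.20 CPM, others 4.64 to 4.75), GAA (73.3, others 80.03 to 80.5), PLXNA3 (74.96, others 87.5 to 90.03), SSTR2 (12.3, others 24.3 to 26.4) and STMN4 (6.48, others 9.10 to 9.49). It was high for GJA5 (7.26, others 5.53 to 5.63). DMSO replicate 1 was high for FEV (130.8, others 116 to 118) and SOX18 (53.9, others 41.8 to 43.3), and low for GRIN1 (2.20, others 3.86 to 4.16) and ST3GAL5 (10.9, others 12.1 to 12.3). DMSO replicate 3 was low for SHANK2 (9.27, others 11.9 to 12.4), and DMSO replicate 4 was low for TUBB3 (705, others 756 to 765). In PB, replicate 2 was low for CYP51A1 (68.5, others 75.6 to 76.4), replicate 4 was low for ST3GAL5 (18.3, others 21.3 to 21.8), and replicate 3 was high for PRPH (1116, others 979 to 989). All but TUBB3 of these genes were called, and each of those calls was made under every left-out library.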

How the results depend on the processing

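Counts of calls stayed within 1.5 times the main values, 2878 raised and 1865 lowered by PB, under every alternative but the fold minimum. With no fold minimum 5301 genes rose and 4666 fell, and with a log2 minimum of 1 these were 1210 and 578. Against RA the same settings gave 4784 higher and 4944 lower, and 747 and 960. Without the replicate block, in the check of the pairing, 2606 genes rose and 1746 fell, and 1889 were higher and 2123 lower than in RA. Leaving out 1 library gave 2602 to 2877 rises and 1936 to 2084 falls, and 1849 to 2144 higher and 2272 to 2401 lower than in RA. DESeq2 gave 2655 rises and 1921 falls, and limma-voom 2909 and 1865.

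Of 205 called genes with values in the text, 197 kept their call under every alternative other than the log2 minimum of 1, and none changed sign. Without the block NPY and DLK1 lost their call. With the GC and length offset BCL7A (0.42) and L1CAM (0.44) fell below the fold minimum. BCL7A (0.49), PCGF5 (0.37) and PER2 (-0.42) did so in replicates 1 and 2 alone, and ABCA1 (0.44) in replicates 3 and 4 alone, where ACTL6B (0.57) and LIN28B (-0.52) passed it. The causes were not tested. Among 113 gene lists, 26 had a count of rises or falls that moved by over 1.5 times and by 3 or more genes under some setting other than the fold minimum. Those printed here are given with their values beside the counts. Depth limits genes near the floor of 3 counts, and 1 cell line limits all of it.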
